A study of Mus musculus with 36 samples.

Results

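The regions described here are the CpG clusters of imprinted genes in the mouse pre-B cell line B3, a line that models a cycling pre-B stage of B cell development. A cluster was a run of listed CpG positions lying at most 100 bp apart, and a cluster was taken when it overlapped the body of 1 of 41 listed imprinted genes, or the 5 kb on either side, in the GENCODE M21 annotation of the mouse build GRCm38. The rule found 62 of the 18009 clusters in the data, at 36 of the 41 genes, and these held 3370 CpG positions. DNA methylation was measured by reduced representation bisulfite sequencing (RRBS), which cuts the genome at CCGG sites and reads mainly CpG-rich DNA, so each value is a smoothed level of methylation in percent.

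The 36 samples formed 2 series of 18. In the Ikaros series the B3 cells carried a retroviral MSCV construct for Ikaros, a zinc finger transcription factor of lymphoid cells, with a haemagglutinin tag, fused to the ERt2 hormone-binding domain and followed by IRES-GFP. In the Control series the cells carried the same vector with ERt2 and IRES-GFP but without Ikaros. Transduced cells of both series were sorted on GFP, and both series received 0.5 μM 4-hydroxytamoxifen (4-OHT), which moves the fusion protein into the nucleus, and were collected at 0, 2, 6, 12, 18 and 24 h. The labels list the drug for the 0 h samples too, whereas the study's methods give none to them. There were 3 biological replicates for each of the 12 conditions. Replicates 1, 2 and 3 were run as separate batches, and by the labels the 0 h samples of replicate 2 came from a batch of their own. By the study's methods the 0 h cells of all replicates were collected apart from the later times, in 3 batches. A change from 0 h and an effect of this separate collection therefore cannot be told apart. Each series is 1 transduced, sorted population of the line, and no normal B cell or other tissue was among the samples.

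Imprinted genes are transcribed from only the maternal or only the paternal copy. The choice is set by control regions that are methylated in the egg or in the sperm and keep that methylation on one parental copy in all body tissues, while most other marks are rewritten after fertilisation. In DNA from a normal tissue such a region therefore holds methylated and unmethylated copies side by side and reads at an intermediate level. Promoters that are silenced later as a consequence of the control region are called secondary. The zinc finger protein ZFP57 binds the methylated hexamer TGCCGC in control regions and protects them in the early embryo. Because the samples held no reference tissue, a gain or loss of methylation was not measured here, and levels are given as levels. In bulk DNA an intermediate level from copies that differ within a cell and one from a mixture of unlike cells cannot be told apart.

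The following sequences of GRCm38, plus strand, show the kinds of control region that the results turn on. The first 3 lie at clusters with intermediate levels, and the last 2 lie at maternal control regions that were nearly fully methylated. Each run is at most 300 bases at its cluster and leaves out untranslated exon sequence, so that the run at Gnas 5 begins inside the cluster and extends past its end. Capitals mark the hexamer TGCCGC or its reverse complement GCGGCA.

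Peg13, chr15:72809747-72810046: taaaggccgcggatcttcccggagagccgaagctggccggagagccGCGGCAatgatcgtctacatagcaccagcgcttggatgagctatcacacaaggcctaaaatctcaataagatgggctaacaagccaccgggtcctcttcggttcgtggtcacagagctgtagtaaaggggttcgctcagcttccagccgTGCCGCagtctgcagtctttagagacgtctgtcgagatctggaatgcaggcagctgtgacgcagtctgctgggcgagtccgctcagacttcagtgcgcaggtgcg
Kcnq1ot1, chr7:143295359-143295658: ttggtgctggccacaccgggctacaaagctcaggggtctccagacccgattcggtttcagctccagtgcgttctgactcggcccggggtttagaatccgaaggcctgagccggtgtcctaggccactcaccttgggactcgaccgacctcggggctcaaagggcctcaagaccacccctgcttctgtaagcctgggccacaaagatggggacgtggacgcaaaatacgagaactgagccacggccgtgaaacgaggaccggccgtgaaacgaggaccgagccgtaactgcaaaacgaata
Gnas 5, chr2:174327942-174328069: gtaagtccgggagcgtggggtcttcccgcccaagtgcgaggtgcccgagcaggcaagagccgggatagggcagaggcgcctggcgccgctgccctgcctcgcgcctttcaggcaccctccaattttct
Mcts2, chr2:152686858-152687034: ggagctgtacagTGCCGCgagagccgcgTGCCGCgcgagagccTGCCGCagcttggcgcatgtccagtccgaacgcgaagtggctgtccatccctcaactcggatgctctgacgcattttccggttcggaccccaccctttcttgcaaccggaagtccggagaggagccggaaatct
Inpp5f 2, chr7:128688047-128688346: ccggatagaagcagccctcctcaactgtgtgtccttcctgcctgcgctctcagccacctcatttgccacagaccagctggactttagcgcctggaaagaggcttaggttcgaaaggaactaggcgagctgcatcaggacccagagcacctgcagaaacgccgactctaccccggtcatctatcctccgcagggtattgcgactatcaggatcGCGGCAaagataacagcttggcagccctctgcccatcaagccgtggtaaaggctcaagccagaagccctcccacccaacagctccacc

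The hexamer, counted on both strands in the 300 bp around the centre of each cluster, was present at 20 of the 56 imprinted gene clusters with complete values (35.7%) and at 30.3% of all 16734 clusters with complete values. It was found at 4 of the 6 clusters with intermediate levels (66.7%) and at 14 of the 44 clusters above 80% (31.8%). Peg13 and Mcts2 both held copies of it, and Kcnq1ot1 held none in this window. Gnas 5 and Inpp5f 2 held 1 each, and the 1 of Gnas 5 lies outside the run printed above. The hexamer thus occurred at both kinds of control region. A match is a run of letters and not a measured binding site.

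Clusters are named by gene and numbered along the chromosome, and where a small gene lies inside a larger one the cluster carries the name of the small gene. The level of a cluster is the mean over its positions that had a value in all 36 samples, which existed for 56 of the 62 clusters. Of the 41 genes, 33 had such a cluster. H19, Peg3, Usp29, Snrpn and Mest had no cluster and were not analysed here.

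The library Control 24 h replicate 2 stood apart from its label. Over 698 clusters that separated the series between 2 and 18 h, it lay 73.0% of the way from Control to Ikaros. The other Control libraries at 0 and 24 h lay between 3.07% and 22.4%, and the Ikaros libraries at those times between 86.8% and 110%. The share of positions without a value ran from 0.110% to 11.6% of all positions per library, with a median of 0.326%. Positions at exactly 0 or 100% made up 36.2% ± 7.63 of an Ikaros library and 27.9% ± 4.89 of a Control library on average (SD, n = 18 each). Of 7 listed B cell lineage genes 3 had a cluster. The clusters of Pax5, Ebf1 and Vpreb1, which B cell precursors use, were between 0.205% and 0.982% methylated, whereas the myeloid gene Cebpa read between 97.8% and 98.2% at its 3 clusters, the erythroid gene Epor 94.0% and the T cell gene Lck 79.6%. No fibroblast marker had a cluster.

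Most imprinted gene clusters of the B3 cells were close to fully methylated. The median level was 96.0%, against 24.6% over all 16734 clusters. Of the 56 clusters, 44 were above 80% (78.6%, against 44.3% of all clusters) and 39 were above 90%. Only 6 lay between 30% and 70% (10.7%, against 4.22% of all clusters), 5 lay below 20% (8.93%, against 49.7%), and 1, in an intron of Kcnq1, lay between these classes at 78.6%. Among clusters within 1000 bp of a transcription start, 77.1% of the 48 imprinted gene clusters were above 80%, against 36.7% of all 13839. Among clusters with the base composition of a CpG island (GC of 50% or more, CpG ratio of 0.6 or more, length of 200 bp or more), the shares were 81.0% of 42 and 39.5% of 13185. The high levels of imprinted genes were thus also seen among clusters of like position and base composition.

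**Figure D1:**
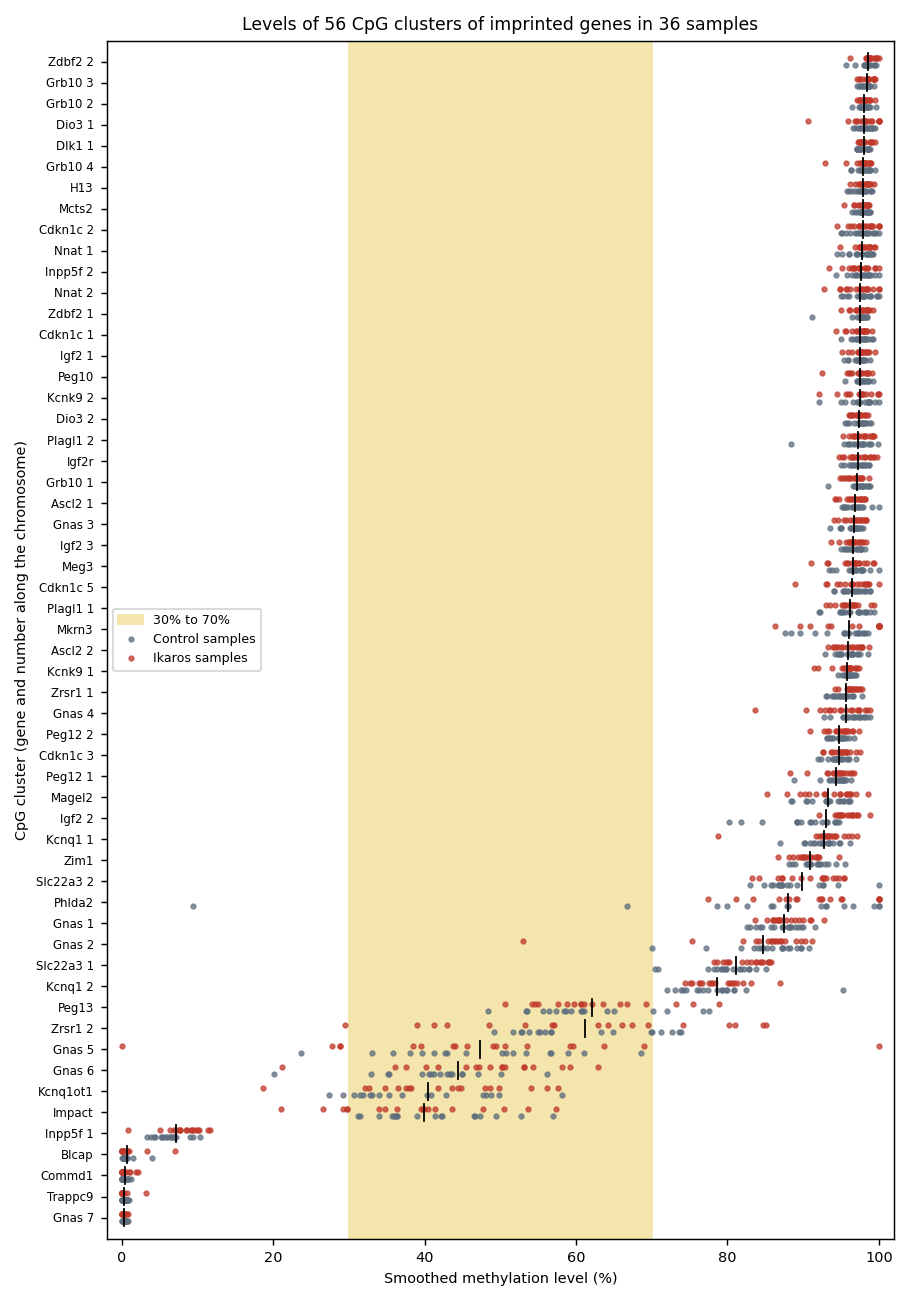
Smoothed methylation level in percent (horizontal axis) of the 56 CpG clusters with complete values (vertical axis), 1 point per sample, with Control in grey and Ikaros in red and a black bar at the mean of 36 samples. Most clusters sit above 80%, 6 have their mean in the shaded band from 30% to 70%, and 5 sit below 20%.

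By role, the clusters at genes with a maternally methylated control region numbered 24, of which 16 were above 80%, 6 were near 50% and 2 were below 20%. All 3 clusters at genes with a paternally methylated control region and all 13 at genes listed for a secondary promoter were above 80%. These lists are of genes, and some of the clusters lie away from the promoter, such as Igf2 3 in an intron and Cdkn1c 5 in intergenic DNA. Of the 16 clusters at genes with no control region of their own, 12 were above 80%, 1 was between the classes and 3 were below 20%. All 6 clusters near 50% thus lay at genes with a maternally methylated control region. Those genes held 24 of the tested clusters and the paternal list only 3. H19 had no cluster and Rasgrf1 none with complete values, so intermediate levels at paternally methylated control regions could not be compared. The lists of roles were drawn up from textbook knowledge and were not tested as sets.

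Gnas held low, intermediate and high clusters in 1 gene. Gnas encodes the stimulatory G protein subunit Gsα from its most downstream start, and imprinted transcripts from upstream starts. Measured from the first annotated start in cluster Gnas 7, the centres of the 7 clusters lay at -45.1, -31.8, -30.4, -29.5, -2.1, -1.4 and +0.3 kb. Gnas 1 (chr2:174284704-174285127), which overlaps the antisense transcript Nespas, was methylated to 87.8% ± 2.33 in the Ikaros and 87.0% ± 2.59 in the Control series (SD, n = 18 each, as in all series values that follow). Gnas 2 read 84.2% ± 8.57 and 85.2% ± 5.04, Gnas 3 read 96.9% ± 1.25 and 96.5% ± 1.15, and Gnas 4 read 94.8% ± 3.61 and 96.5% ± 1.63. The upstream part of the domain was thus high in both series, and within Gnas 1 the positions ran from 74.8% to 95%.

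Gnas 5 (chr2:174327851-174327988), at the start of exon 1A, lay near 50%. Its levels in the Ikaros series were 0% at the lowest, 47.3% at the median and 100% at the highest, and in the Control series 23.7%, 47.9% and 68.5%. The lowest was Ikaros 12 h replicate 2 and the highest Ikaros 24 h replicate 1, so these 2 libraries of 1 series spanned the whole scale. The means were 47.3% ± 20.8 and 47.3% ± 11.2, with a difference of 0.0217 points (95% CI -11.5 to 11.5). At 0 h Ikaros was 23.3 points higher, and at 2 h the difference was -17.3 points. The standard deviation within conditions was 16.2 points, above that of 96.2% of the 707 clusters near 50%.

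Gnas 6 (chr2:174328405-174328781) lies next to it in the same exon 1A region. Its Ikaros libraries ran from 21.1% over a median of 49.4% to 62.9%, and its Control libraries from 20.1% over 42.5% to 56.2%. The means were 47.6% ± 9.82 and 41.4% ± 7.57, a difference of 6.23 points (95% CI 0.262 to 12.2) that the limma test on M-values did not call (adjusted p = 0.549). Ikaros was higher at 6 of 6 time points, by 21.7 points at 0 h and by 0.205 to 9.10 points later. Gnas 7 (chr2:174329644-174330923), at the Gsα start, read 0.240% ± 0.225 and 0.319% ± 0.227 over 163 positions, and no position averaged above 0.818%. From Gnas 6 to Gnas 7 the level fell from 44.5% to 0.279%.

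**Figure D2:**
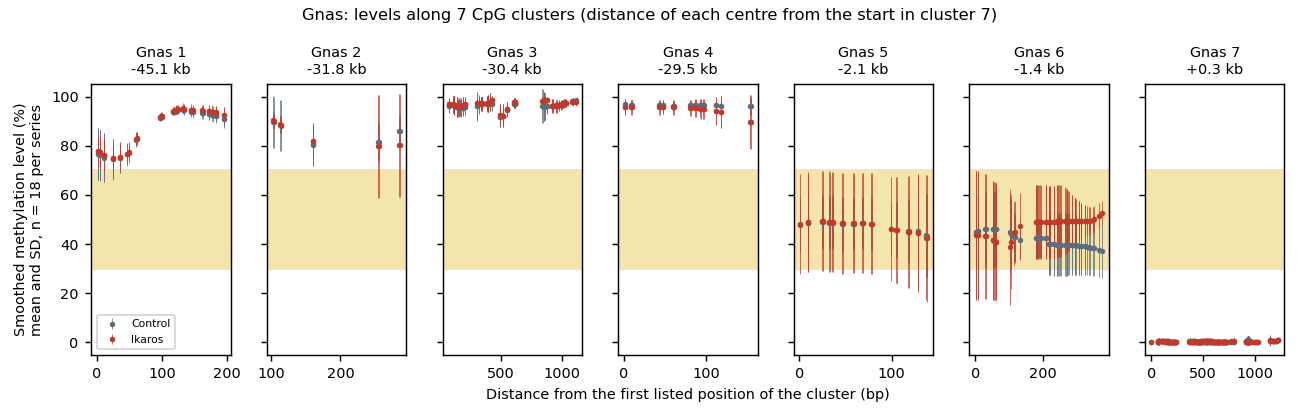
Smoothed methylation level in percent (mean and SD of 18 samples per series) against distance in bp from the first listed position, for the 7 Gnas clusters in order, with the distance of each centre in kb from the start in Gnas 7 above its panel. Gnas 1 to Gnas 4 lie above the shaded 30% to 70% band, Gnas 5 and Gnas 6 lie in it, and Gnas 7 lies at the floor.

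Kcnq1ot1 is the long antisense RNA that starts inside Kcnq1 and silences its neighbours on the paternal copy. Its cluster (chr7:143295405-143295611, 938 bp from the start, 10 of 26 positions complete) read 18.6%, 42.7% and 57.6% at the lowest, median and highest Ikaros library and 27.4%, 36.1% and 58.2% in Control. The means were 42.1% ± 9.74 and 38.9% ± 8.69, and the series overlapped. The difference was 3.2 points (95% CI -2.34 to 8.75). The listed genes of the same domain were mostly above 80%. Cdkn1c, which encodes the cell cycle inhibitor p57, read between 94.8% and 97.9% at its 4 tested clusters. Ascl2, a basic helix-loop-helix factor of the placenta, read 96.8% and 96.0%. The start of Kcnq1, a potassium channel, read 92.7%, and a cluster in its intron 78.6%. Cd81 and Tssc4, neighbours in the domain that are not among the 41 listed genes, read 0.289% and 0.285%. Phlda2, a growth-restraining gene of the placenta, read 87.9%, but this rests on 1 of its 86 positions and ran from 9.38% in Control 2 h replicate 3 to 100%.

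Impact, a regulator of translation under stress, has its control region in the first intron. Its cluster (chr18:12973140-12973470, 46 of 46 positions complete) ran in the Ikaros series from 21% over a median of 39.7% to 57.4%, and in Control from 31.2% over 40.2% to 56.9%. The means were 38.6% ± 9.66 and 41.2% ± 7.39, and the difference was -2.57 points (95% CI -8.66 to 3.52). Along the cluster the positions averaged from 39.3% to 40.8%, so it was even over its length. At 0 h the 3 Ikaros libraries read 21%, 34.8% and 26.6% and the 3 Control libraries 52.7%, 49.4% and 42.3%. These 2 sets did not overlap at 0 h, nor did those of Gnas 6, which was the case for 11 of the 56 imprinted gene clusters and for 13.6% of all clusters. Over all times the series overlapped at both. In limma with the 0 h samples alone the difference was not called at Impact (adjusted p = 0.481) nor at Gnas 6 (adjusted p = 0.821), but that fit of 3 against 3 called only 1 of all 16734 clusters.

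Peg13 is a noncoding RNA that starts inside an intron of Trappc9. Its cluster (chr15:72809706-72810087, 18 of 49 positions complete) ran from 50.5% over 60.9% to 78.8% in Ikaros and from 48.4% over 60% to 77.6% in Control. The means were 62.7% ± 7.71 and 61.6% ± 8.03, with a difference of 1.02 points (95% CI -4.35 to 6.39). It was uneven along its length, with positions between 36.2% and 73.9%. The start of the host Trappc9, a factor of vesicle transport, read 0.349%. The potassium channel gene Kcnk9 of the same domain read 95.8% and 97.4% at its clusters just upstream of the gene.

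Zrsr1, a gene of a splicing factor that arose as a retrogene inside an intron of Commd1, had 2 neighbouring clusters with unlike levels, separated by little more than 100 bp. Zrsr1 1 (chr11:22971952-22972750) read 96.4% ± 0.918 in Ikaros and 95.1% ± 1.23 in Control. Zrsr1 2 (chr11:22972855-22973162) ran in Ikaros from 29.5% over 63.6% to 85.1%, and in Control from 49.1% over 56.7% to 73.9%. Its means were 61.3% ± 16.6 and 61.0% ± 8.72, with a difference of 0.260 points (95% CI -8.06 to 8.58). Its Ikaros means were 76.3% ± 11.8 at 0 h, 39.8% ± 9.58 at 12 h and 72.7% ± 17.02 at 24 h (n = 3 each), while its Control means stayed between 57.7% and 65.0%. The change over time in Ikaros had an unadjusted p of 0.0151 and an adjusted p of 0.905 in limma's F-test, so it was not called. The host start of Commd1 read 0.369%.

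**Figure D3:**
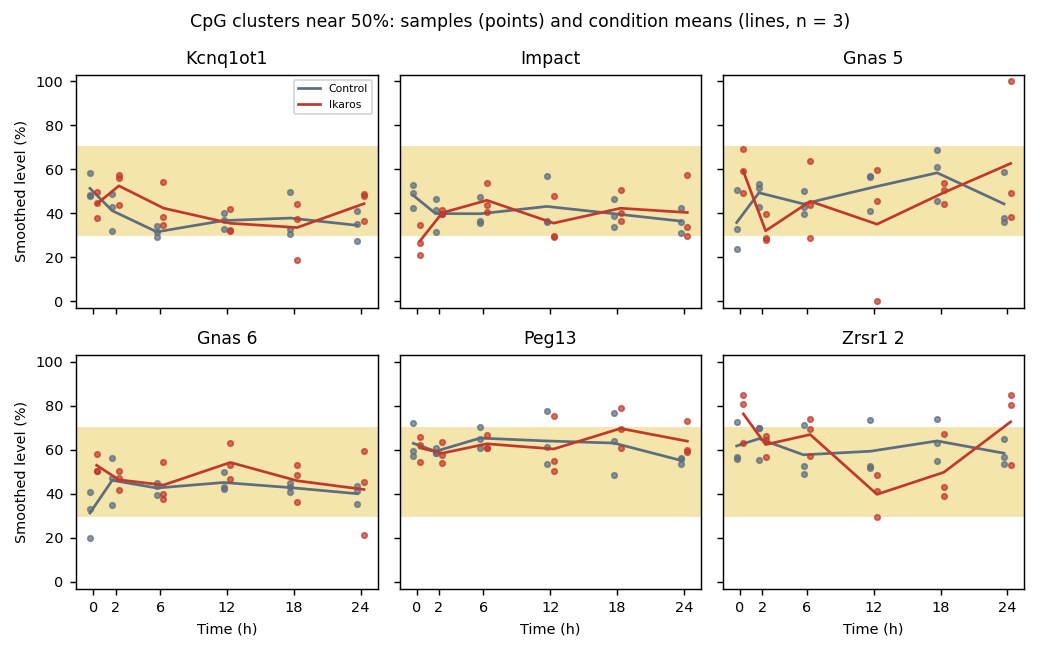
Smoothed methylation level in percent against time in h for the 6 clusters near 50%, with points for samples and lines for condition means (n = 3), Control in grey and Ikaros in red. The points of the series overlap, the Impact, Gnas 5 and Gnas 6 means differ most at 0 h, and Gnas 5 has 1 Ikaros sample at 0% and another at 100%.

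The standard deviation within conditions at the 6 clusters near 50% lay between 7.84 and 16.2 points, and its median over all 707 clusters near 50% was 7.62 points. At the imprinted gene clusters above 90% the median was 1.28 points. Clusters in the middle of the scale thus varied more between replicates than those near its end, as did other clusters of that level. Of the 6, only Kcnq1ot1, Gnas 5 and Gnas 6 had a mean between 40% and 60%. Impact at 39.9% lay just outside, and Zrsr1 2 at 61.2% and Peg13 at 62.1% lay above.

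Apart from the main start of Inpp5f, given below, clusters at other genes with a maternally methylated control region were near full methylation. Plagl1, a zinc finger regulator of growth, read 96.2% and 97.3% at its 2 clusters. Grb10, an adaptor that restrains insulin signalling, read 97.1% at its downstream CpG-rich start and between 97.9% and 98.4% at the 3 clusters of its upstream start. Peg10, a gene derived from a retrotransposon, read 97.5% at its start. None of these was near 50% in any of the 36 samples. The lowest single value among them was 88.4%, at Plagl1 2 in Control 24 h replicate 2, the library that stood apart from its label. Nnat, which encodes the membrane protein neuronatin, read 97.8% and 97.5%, and Mcts2, a retrogene inside H13, read 97.9%.

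Several imprinted starts lie inside another gene. In the Blcap, Inpp5f, Commd1 and Trappc9 genes the host start was low and the nested start was higher, whereas the start of Kcnq1 was higher than the Kcnq1ot1 cluster inside it, as given above. In the Blcap and Nnat pair the host start read 0.734% and the nested start 97.8%. In Inpp5f, a phosphatase of phosphoinositides, the main start read 8.18% ± 2.49 in Ikaros and 6.27% ± 1.89 in Control, and the intronic cluster at the imprinted inner start read 97.4% ± 1.62 and 97.7% ± 1.35. The main start was uneven, with positions from 0.709% to 47.3%. Commd1 read 0.369%, and the 2 clusters that overlap starts of Zrsr1 read 95.7% and 61.2%, and Trappc9 and Peg13 read 0.349% and 62.1%. Together with Gnas 7, the 4 host starts made up all 5 clusters below 20%. H13 had no tested cluster at its main start, and an internal exon read 97.9%.

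**Figure D4:**
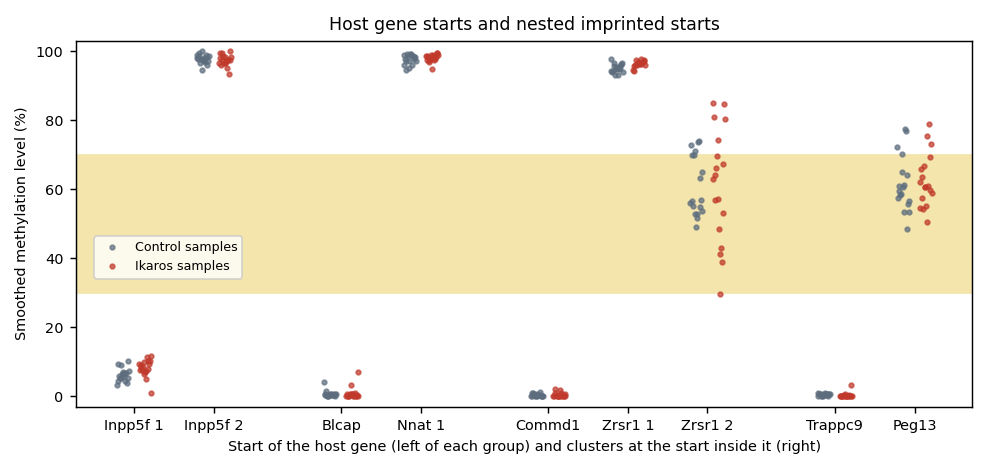
Smoothed methylation level in percent of the host gene start (left of each group) and of the clusters at the imprinted start inside it (right), 1 point per sample, Control in grey and Ikaros in red. The host starts lie at or below 11.7% in all samples, 3 nested clusters lie above 90%, Zrsr1 2 spreads from 29.5% to 85.1%, and Peg13 from 48.4% to 78.8%.

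Clusters at genes of paternally methylated domains were high as well. They lie in or within 5 kb of the genes. Control regions further away, such as those of the Meg3 and Rasgrf1 domains, were not analysed here. Meg3, a long noncoding RNA made from the maternal copy, read 96.4% ± 2.13 in Ikaros and 96.8% ± 1.64 in Control at a cluster 461 bp from a start (chr12:109549716-109549823). Zdbf2, a zinc finger gene active on the paternal copy, read 97.5% at a cluster overlapping a start and 98.6% at one 346 bp from a start. Rasgrf1, an exchange factor for Ras, had no position with a value in all samples, and its 2 clusters averaged 97.5% and 95.8% over the values they had. In the domain of Meg3 the secondary promoter of Dlk1, a ligand related to those of Notch, read 98.0%, and Dio3, which inactivates thyroid hormone, read 98.0% and 97.4%. Rtl1 averaged 96.1% over the values it had.

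Clusters at the remaining genes of the secondary list were also high. Igf2r, the receptor that clears the growth factor IGF2, has a start (chr17:12769281-12769831) that overlaps the antisense RNA Airn and read 97.3% ± 1.5 and 97.2% ± 1.09. No cluster lay within 1000 bp of a start of Airn itself, a gene listed for a maternally methylated control region. In the domain of Snrpn, the paternally expressed genes Magel2, Mkrn3 and Peg12 read 93.2%, 96.0% and, at 2 clusters, 94.3% and 94.8%. Ndn averaged 97.1% over the values it had. In the Igf2r domain the transporter gene Slc22a3 read 89.8% at its start, and a cluster within 5 kb of it, in an exon of the plasminogen gene Plg, read 81.1%. Zim1 read 90.9% in an exon far from its start.

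The comparison of the series asked whether cells with the Ikaros construct differ in methylation from cells with the vector alone. Since each series is 1 transduced population, Ikaros and other differences between the populations cannot be told apart. Of the 56 imprinted gene clusters, 1 was called in a limma model of M-values with time and series (adjusted p under 0.05 over all 16734 clusters), which is 1.79%, and 4.84% of all clusters were called. The call rate over all clusters depended on the fit, since 810 were called here and 335 with coverage covariates, with 1 imprinted gene cluster called in both. In the direction of higher levels in Ikaros 3.71% of all clusters were called, and in the other direction 1.13%. An unadjusted p under 0.05 was found at 4 clusters (7.14%), against 14.8% of all clusters. The median difference was 0.177 points over the imprinted gene clusters and 0.0359 points over all clusters, and 33 of the 56 were higher in Ikaros, as were 9256 of all 16734. No imprinted gene cluster had series ranges that did not overlap, which was the case for 0.0478% of all clusters.

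The called cluster was Igf2 2 (chr7:142660530-142661035, 33 of 39 positions complete). Igf2 is a fetal growth factor made from the paternal copy, and the cluster overlaps an exon of it, the antisense gene Igf2os and the predicted gene Gm49394, so a level here cannot be assigned to 1 of them. The Ikaros libraries ran from 92.1% over a median of 95.5% to 98.8%, and the Control libraries from 80.2% over 91.3% to 94.8%. The 3 lowest were Control libraries, at 0 h in replicate 2, at 18 h in replicate 1 and at 2 h in replicate 3. Of the Control libraries 10 of 18 lay below the lowest Ikaros library, and 13 of 18 Ikaros libraries lay above the highest Control library, so the ranges overlapped. The means were 95.6% ± 1.48 and 90.4% ± 4.27. Igf2 2 was 5.28 points higher in Ikaros (95% CI 3.19 to 7.38), or 1.00 on the M-value scale (limma, adjusted p = 0.000222).

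Ikaros was higher at 6 of 6 time points, by 4.14 to 6.10 points and by 6.10 points at 0 h itself. Control 24 h replicate 2 read 89.1% at Igf2 2, and without it the Control mean was 90.4% ± 4.39 (n = 17). Leaving out any 1 library or replicate number kept the call, with differences of 0.909 to 1.14 on the M-value scale and adjusted p between 5.2e-05 and 0.0381. The share of values at exactly 0 or 100% moved with the series as given above, and with such coverage measures as covariates the difference was 0.89 on the M-value scale (adjusted p = 0.0133). Within replicates 1, 2 and 3 alone, fits chosen after seeing the data, it was 0.73, 1.20 and 1.08, none of them called (adjusted p = 0.563, 0.335 and 0.245).

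The difference was uneven along the cluster. At the position 110 bp into it the means were 97.5% in Ikaros and 78.9% in Control, 18.5 points apart, while at 339 bp they were 0.824 points apart. Over the 6 positions at chr7:142660606-142660639, a stretch chosen after its values were seen and given with no test, the Ikaros libraries ran from 89.1% over 96.1% to 100% and the Control libraries from 35.9% over 83.8% to 98.9%. In this stretch 6 of 18 Control libraries and 0 of 18 Ikaros libraries were below 80%. The clusters on either side did not share the difference. Igf2 1 differed by 0.253 points (95% CI -0.404 to 0.909) and Igf2 3 by -0.146 points (95% CI -0.824 to 0.531).

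**Figure D5:**
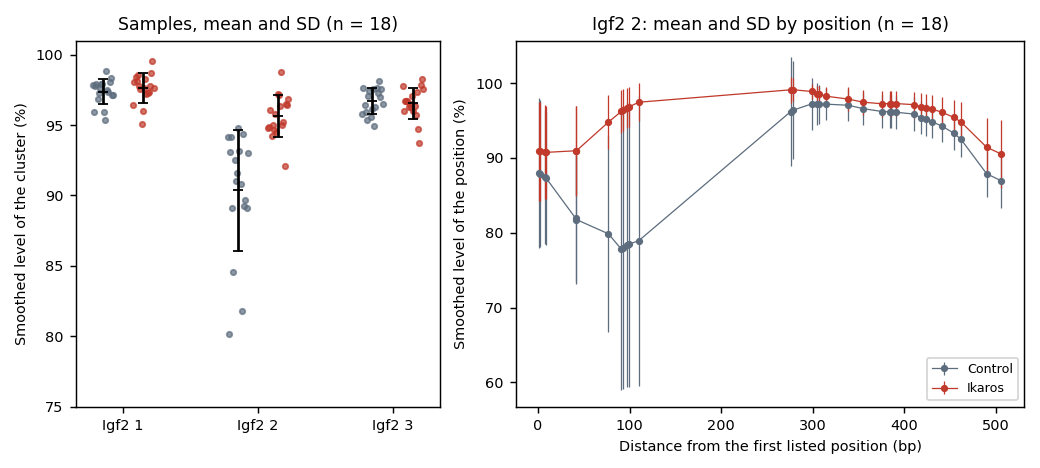
Left, smoothed level in percent of the 3 Igf2 clusters, 1 point per sample with mean and SD of 18 samples, on an axis that starts at 75%, and right, mean and SD of each position along Igf2 2 against distance in bp, Control in grey and Ikaros in red. At Igf2 2 the series means differ but the ranges overlap, and the means at 110 bp are 97.5% and 78.9%, while at Igf2 1 and Igf2 3 the means lie close together.

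Zrsr1 1 was 1.30 points higher in Ikaros (95% CI 0.566 to 2.04) and was not called in the model of M-values (adjusted p = 0.227 in limma), but passed in the same model of levels (adjusted p = 0.0247) and in the model of M-values with the 2 h to 18 h samples alone, where the difference was 0.49 on the M-value scale (adjusted p = 0.00951). Slc22a3 1, the cluster in Plg, read 82.6% ± 2.58 in Ikaros and 79.7% ± 3.86 in Control (limma, adjusted p = 0.0825). At the 6 clusters near 50% the adjusted p-values in limma ran from 0.549 to 1, and the intervals above leave room for differences of several points in either direction at all of them except Gnas 6, whose interval lies above 0.

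No imprinted gene cluster was called for a change over time. In the Ikaros series limma's F-test called 0 of 56, as it called 0% of all clusters, and an unadjusted p under 0.05 was found at 7 (12.5%, against 5.22% of all clusters). In the Control series it called 0 of 56, against 0.012% of all clusters, with 4 at an unadjusted p under 0.05 (7.14%, against 4.83%). A different course over time in the 2 series was called at 0 of 56 and at 0% of all clusters, with 4 at an unadjusted p under 0.05 (7.14%, against 5.12%). The smallest adjusted p-values of limma were 0.760, 0.954 and 0.850 in these tests.

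Genes that maintain imprints and other imprinted genes gave the setting. Among 15 clusters of 11 genes that maintain or bind methylation, none was called for the series and 12 were below 20%, among them those of the maintenance methyltransferase Dnmt1 (0.220%), its partner Uhrf1 (0.271%) and the corepressor Trim28 (0.185%). Setdb1, a histone methyltransferase, read 33.8%, and Zfp445, a zinc finger protein that guards imprints, and Ctcfl, the germ line relative of CTCF, read 95.5% and 92.2%. Among 10 clusters of 9 further imprinted genes or their neighbours, none was called for the series, 5 were above 80% and 4 below 20%. Nap1l5 read 97.2%, the 2 clusters of Klf14 97.3% and 98.0%, and Casd1 39.7%, whereas Ube3a, a ubiquitin ligase, read 0.467% and Copg2 0.380%, alongside the low Cd81 and Tssc4.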

How the data were processed

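RRBS libraries of 36 B3 samples were sequenced, and per the labels and the study's methods the authors trimmed the reads with Trim Galore, aligned them to mm10 with Bismark 0.10.1, limited very high coverage and smoothed levels along CpG clusters with BiSeq, with a bandwidth of 80 bp. The authors deposited the smoothed levels as a fraction from 0 to 1 per position, and M-values, the log2 ratio of methylated to unmethylated, after limiting levels to 0.01 to 0.99. Neither table gives read counts, so the depth per position is unknown, no counting interval can be given, and smoothing ties neighbouring positions together. Where nearby reads are few, smoothing can also lend 1 position the level of its neighbours.

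Values at 895908 of 1116417 positions existed in all samples. Both measures were averaged over these positions per cluster, and 16734 of 18009 clusters had at least 1. Series and time were tested in limma 3.58.1 (R 4.3.3) on M-values with the model of time and series, and the course over time with moderated F-tests, with Benjamini-Hochberg adjustment over all clusters and a threshold of 0.05. Differences in points are from the same model of levels. The script was tested on simulated data. Tables were handled in Python 3.11.15 with pandas 2.3.3.

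The members and lists were chosen with earlier results of these data known. Named clusters are those called, those at 30% to 70%, and those of control-region genes within 1000 bp of a start. Further clusters, such as Gnas 3, Gnas 4, Igf2 1, Igf2 3 and Slc22a3 1, were named outside this rule, after their values were seen. Replicates were separate runs of the time course, with the 0 h cells collected apart. By the labels same-numbered samples share a batch, except that replicate 2 had 1 batch at 0 h and another later. Deviations from condition means of same-numbered samples correlated between -0.0442 and 0.0219 over 18 pairs. With the replicate block 1 imprinted gene cluster was called, Igf2 2 (adjusted p = 0.000271).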

Additional observations from a re-analysis of the deposited data

How the results depend on the processing

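The count of imprinted gene clusters called for the series was 1 as reported. It was 2 with levels in place of M-values, with clusters from 5% to 95% alone and with the 2 h to 18 h samples, where 906, 687 and 698 of all clusters were called against 810 as reported. It stayed at 1 with coverage covariates and without replicates 1 and 3, where 335, 399 and 368 of all clusters were called. It was 0 with the 0 h samples, where 1 of all clusters was called, and 1 to 2 with a library or replicate number left out. The second cluster was Zrsr1 1 with levels and with the 2 h to 18 h samples, and Slc22a3 1 with clusters from 5% to 95%. With a library or replicate number left out it was Zrsr1 1 without Control 0 h replicate 1, Slc22a3 1 without Control 0 h replicate 3 and Trappc9 without replicate 2. Igf2 2 was called in all of these except with the 0 h samples, where the difference was 0.88 (adjusted p = 0.862 in limma). The replicate block called the same imprinted gene cluster and no other, with 820 of all clusters called. The counts for time and for a different course stayed at 0 under every alternative run. The count of clusters near 50% was 6 as reported, 6 with any library left out, 7 between 20% and 80%, and 3 between 40% and 60%.

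The uncalled differences near 50% changed sign under some settings, except at Gnas 6, which kept its sign in all 49 alternatives. On the M-value scale, coverage covariates gave -0.24 at Zrsr1 2 and 0.062 at Impact, and the 2 h to 18 h samples -0.42 at Zrsr1 2. The 0 h samples gave -0.095 at Peg13, 1.46 at Gnas 5 and -0.42 at Kcnq1ot1, and levels gave 0.0217 points at Gnas 5. With libraries left out the ranges were -0.0217 to 0.184 at Zrsr1 2, -0.0990 to 0.372 at Peg13, -0.344 to -0.0908 at Impact, -0.403 to 0.519 at Gnas 5, 0.210 to 0.546 at Gnas 6 and -0.00325 to 0.287 at Kcnq1ot1. The cause was not tested. Without coverage in the tables, depth cannot be weighed against these differences.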
